A study of Mus musculus with 6 samples.

Results

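The genes of polyamine metabolism were followed through 6 Agilent 1-colour microarrays of NIH3T3 cells, an established line of mouse embryonic fibroblasts. The 10 listed genes were Odc1, Amd1, Srm, Sms, Sat1, Smox, Paox, Azin1, Oaz1 and Oaz2, and their probes were found by the transcript accession that the scanner files give. This gave 20 of 56570 probes, which cover 9 of the 10 genes. No probe carried an accession of Amd1. The GGCT-OE group (3 arrays) was made by retroviral infection with a pCX4bsr vector that expresses GGCT, gamma-glutamylcyclotransferase, an enzyme of glutathione breakdown. The empty group (3 arrays) received the control vector. Both groups were NIH3T3 cells grown in medium with 2% serum, and total RNA was labelled with Cy3. The labels describe stable populations and do not say whether each experiment used a new infection, so p-values measure the spread between these arrays. Vector insertion, selection and drift of the populations cannot be told apart from the expressed gene.

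Polyamines are small positively charged molecules that bind nucleic acids and are needed for growth and translation. Ornithine decarboxylase makes putrescine from ornithine, and aminopropyl groups from decarboxylated S-adenosylmethionine turn putrescine into spermidine and then into spermine. Acetylation and oxidation run the route backwards. Antizymes bind ornithine decarboxylase, deliver it to the proteasome and reduce polyamine uptake, and antizyme inhibitor draws antizymes away. Much of this control acts on translation and protein stability, which RNA arrays do not measure.

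The members moved in both directions. On GGCT-OE arrays, spermine synthase (Sms) and antizyme 1 (Oaz1) were higher, and antizyme inhibitor (Azin1) and the catabolic genes Sat1, Smox and Paox were lower. The brightest probes of Odc1, Srm and Oaz2 did not pass the test, which leaves the replicate number out. With that number in the fit these probes were called, as given below for each gene. By gene, taking the brightest probe, 2 of 9 were called higher and 4 lower, with limma at a Benjamini-Hochberg adjusted p under 0.05 over all probes. Over all 23774 genes and unnamed transcripts tested, 17.7% were called higher and 17.4% lower, so 35.1% in either direction. Of the 14057 named genes among them, 2505 were called higher and 3117 lower. All members are named genes, and a larger share was called lower among named genes than over all. By probe, 5 of 20 were called higher and 6 lower, against 17.7% higher and 17.5% lower over all 31110 probes tested (35.2% in either direction). All 20 member probes were well above background on all 6 arrays, so none entered the test through 1 group alone. The median difference was -0.30 over the 9 genes, 0.02 over all genes and -0.02 over named genes. GGCT-OE and empty arrays did not overlap for 18 of the 20 probes, against 49.7% of all probes. The brightest probes of all 9 genes had separate groups, against 49.3% of all genes. Without the filter on dim probes, which adds tests to the adjustment, Sms alone was called higher and Azin1 alone lower. The chromosome neighbours of several members had a median difference on the same side of 0, as described after the single genes. In these bulk samples, fewer cells that express a gene and less of its RNA per cell cannot be told apart.

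The experiments carry the numbers 1 to 3 in both groups, and arrays with the same number deviated together. With the number as a block, 7 member probes were called higher and 10 lower, against 27.4% of all probes higher and 26.2% lower (53.6% in either direction). By gene, 4 were called higher and 5 lower, against 27.3% and 26.1% of all genes (53.4% in either direction). Both arrays of replicate 1 share slide 1 and scan 1, and the other 4 arrays share slide 2 and scan 2. Differences are therefore also given within each slide. All levels below are log2 intensity relative to the 75th percentile of the same array, and each difference is GGCT-OE minus empty. Levels of different probes are not comparable. The exact permutation test of 3 against 3 arrays (2-sided) cannot give less than p = 0.1, the value of the 18 probes whose groups did not overlap.

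**Figure D1:**
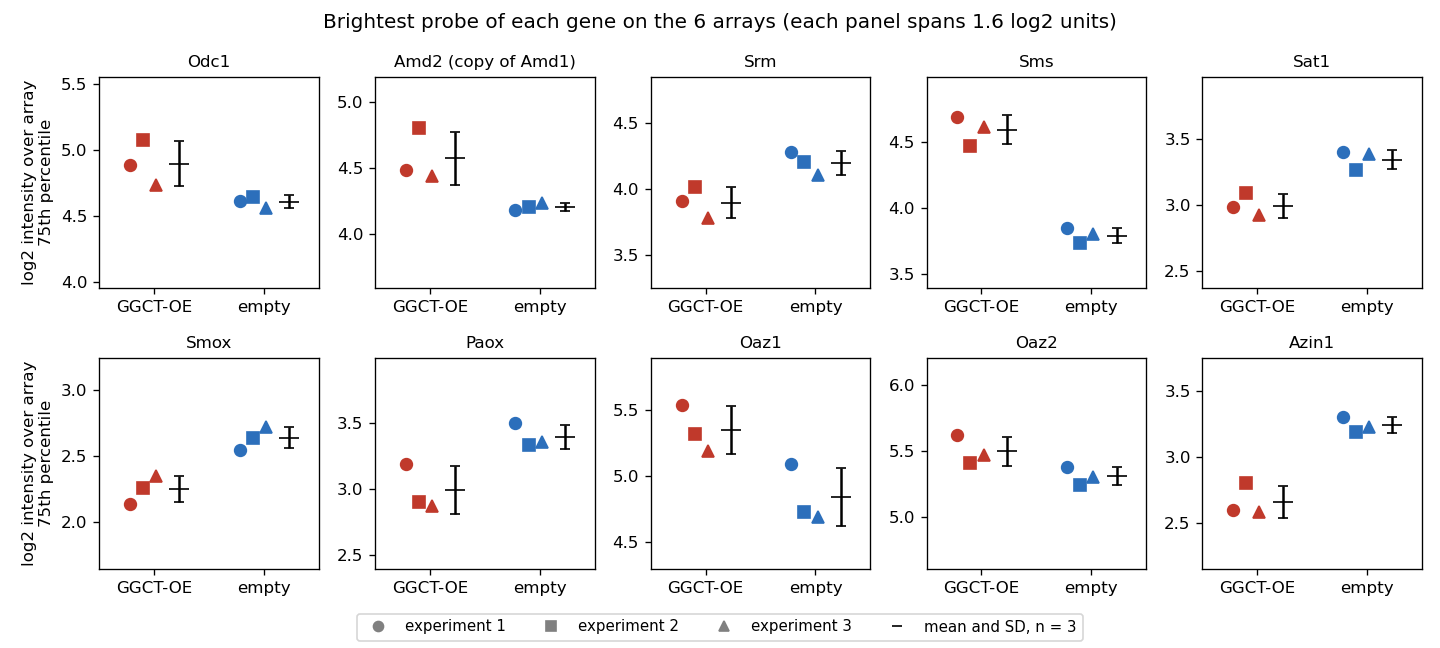
Level of the brightest probe of each measured member and of Amd2 on every array (log2 intensity relative to the array's 75th percentile), with GGCT-OE left of empty in each panel and the horizontal bars at the group means. Sms lies between 4.47 and 4.69 on GGCT-OE arrays and between 3.73 and 3.85 on empty arrays, and Azin1 lies between 2.58 and 2.80 on GGCT-OE arrays and between 3.19 and 3.30 on empty arrays.

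Promoter sequence is shown for the first enzyme of the route, Odc1, and for Sms and Oaz1, the members called higher. Each window holds 250 bases before and 50 after the RefSeq start (GRCm38.p6), and 8 of the 10 members have one. Capitals mark the E-box CACGTG bound by MYC family proteins, the GC box GGGCGG bound by Sp1 and the TATA box TATAAA, each searched on both strands.
Odc1, chr12:17544623-17544922, plus strand: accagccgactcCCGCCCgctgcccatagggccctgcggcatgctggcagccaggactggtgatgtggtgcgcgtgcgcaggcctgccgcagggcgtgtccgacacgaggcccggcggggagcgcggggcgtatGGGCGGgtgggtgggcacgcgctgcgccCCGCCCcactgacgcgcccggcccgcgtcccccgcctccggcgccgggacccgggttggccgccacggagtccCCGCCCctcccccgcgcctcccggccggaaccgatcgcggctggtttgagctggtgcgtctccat
Sms, upstream start, chrX:157492238-157492537, minus strand: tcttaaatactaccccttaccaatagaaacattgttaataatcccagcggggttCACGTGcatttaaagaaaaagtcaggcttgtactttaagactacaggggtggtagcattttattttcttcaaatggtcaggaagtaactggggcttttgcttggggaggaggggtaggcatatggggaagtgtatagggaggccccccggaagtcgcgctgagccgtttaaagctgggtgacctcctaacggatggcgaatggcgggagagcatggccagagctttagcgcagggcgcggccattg
Sms, downstream start, chrX:157491319-157491618, minus strand: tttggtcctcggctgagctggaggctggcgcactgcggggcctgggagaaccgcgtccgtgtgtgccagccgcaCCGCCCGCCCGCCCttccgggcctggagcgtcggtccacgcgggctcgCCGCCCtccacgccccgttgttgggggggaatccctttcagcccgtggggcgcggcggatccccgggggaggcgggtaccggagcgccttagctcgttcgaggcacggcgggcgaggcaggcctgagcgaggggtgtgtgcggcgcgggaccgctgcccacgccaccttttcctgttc
Oaz1, chr10:80826406-80826705, plus strand: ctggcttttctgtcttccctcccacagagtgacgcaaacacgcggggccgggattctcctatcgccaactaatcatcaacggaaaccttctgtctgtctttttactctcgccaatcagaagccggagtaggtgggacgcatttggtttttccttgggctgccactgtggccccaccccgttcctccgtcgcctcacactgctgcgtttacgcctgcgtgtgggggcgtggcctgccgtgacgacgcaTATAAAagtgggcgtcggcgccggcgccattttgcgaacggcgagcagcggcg
The Odc1 window is 78.0% G and C and holds 4 GC boxes. Of the Sms windows, the upstream one holds 1 E-box and the downstream one 4 GC boxes, some of which overlap. The E-box occurred in 1 of the 11 windows of the members and Amd2, against 7.15% of all 32851 windows in the table. The GC box occurred in 8 of the 11, against 35.7% of all windows. Paox has overlapping windows with the same 3 GC boxes, so its promoter is counted more than once in the 8 and the 11. The TATA box occurred in 1 of the 11, that of Oaz1, against 13.6% of all windows. The CCAAT box, CCAAT, occurred in 3 of the 11, against 37.4%. The element TATGACTAA, known from polyamine induction of human SAT1, was in none of the 11 and in 0.0974% of all windows. The cyclic AMP response element TGACGTCA was in none of the 11 and in 1.79% of all windows. A match describes letters in the window and not binding.

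Odc1 encodes ornithine decarboxylase, the regulated first step and a classical MYC target. Its brightest probe read 4.89, 5.08 and 4.74 on GGCT-OE arrays 1 to 3, against 4.62, 4.65 and 4.56 on empty arrays 1 to 3. Every GGCT-OE array was above every empty array. The means were 4.90 ± 0.17 on GGCT-OE arrays and 4.61 ± 0.05 on empty arrays (SD, n = 3 each), and the difference of 0.29 ± 0.11 (SE) did not pass limma's test (adjusted p = 0.0887). With the replicate block its adjusted p was 0.0324. The unadjusted 95% interval ran from 0.02 to 0.56. Slide 1 gave 0.26 and slide 2 gave 0.30. The other Odc1 probe read 0.99, 1.76 and 1.30 on GGCT-OE arrays, against 0.89, 1.35 and 1.22 on empty arrays. Its groups overlapped, and its difference of 0.20 ± 0.22 had an adjusted p of 0.537 by limma and an exact permutation p of 0.5. Without GGCT-OE replicate 2 that difference was -0.01.

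Amd1 encodes S-adenosylmethionine decarboxylase, which makes the aminopropyl donor. It has no probe here, but 4 probes carry the accession of Amd2, a near-identical copy in the mouse with its own entry in the gene table. Amd2 is not one of the 10 listed genes and belongs to the list of further polyamine genes. The RefSeq windows of both genes on chromosome 10 share an unbroken run of 48 bases, positions 253 to 300 of the Amd1 window and 251 to 298 of the Amd2 window, which lies after the start. Signal on these probes can come from either transcript. The brightest read 4.48, 4.80 and 4.44 on GGCT-OE arrays, against 4.18, 4.20 and 4.23 on empty arrays. The groups did not overlap, and the difference of 0.37 ± 0.12 missed the threshold (limma, adjusted p = 0.0539). With the replicate block the adjusted p was 0.0374. The other probes differed by 0.34 (adjusted p = 0.0655), 0.27 (adjusted p = 0.125) and 0.20 (adjusted p = 0.336). With the block these had adjusted p-values of 0.0457, 0.0349 and 0.184.

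Srm encodes spermidine synthase, which adds the first aminopropyl group. The brightest Srm probe read 3.91, 4.02 and 3.78 on GGCT-OE arrays, against 4.28, 4.21 and 4.11 on empty arrays. All GGCT-OE arrays were below all empty arrays. The means were 3.90 ± 0.12 on GGCT-OE arrays and 4.20 ± 0.09 on empty arrays (SD, n = 3 each), a difference of -0.30 ± 0.10 that did not pass limma's test (adjusted p = 0.0611). With the replicate block the adjusted p was 0.0199. A second probe differed by -0.35 ± 0.11 and was called (adjusted p = 0.0464), a call lost in 12 of 20 other settings. Of these 20, slide 2 alone and the run without both arrays of replicate 1 are the same fit, which lost the call. The third differed by -0.36 ± 0.13 and was not called (adjusted p = 0.0762, with the block 0.0199). So 1 of 3 Srm probes was called lower, and the differences of all 3 lay between -0.36 and -0.30.

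Sms encodes spermine synthase, which adds the second aminopropyl group, and it had the largest difference of the 9 measured members. Its brightest probe read 4.69, 4.47 and 4.61 on GGCT-OE arrays, against 3.85, 3.73 and 3.80 on empty arrays. The lowest GGCT-OE array was above the highest empty array. The means were 4.59 ± 0.11 on GGCT-OE arrays and 3.79 ± 0.06 on empty arrays (SD, n = 3 each), a difference of 0.80 ± 0.09 (95% interval 0.58 to 1.02) or 1.74-fold. This was called (limma, adjusted p = 0.00153). It was 0.84 on slide 1 and 0.78 on slide 2. All 4 Sms probes were called higher. The other 3 differed by 0.92 ± 0.14 (adjusted p = 0.00403), 0.56 ± 0.12 (adjusted p = 0.0146) and 0.46 ± 0.10 (adjusted p = 0.0160). The probes thus agreed in sign and differed in size. Without both arrays of replicate 3 the brightest probe still differed by 0.79 but had an adjusted p of 0.0599, and the 0.92 became 0.83 with an adjusted p of 0.0858. The calls on the 2 probes with smaller differences were each lost in 6 of 20 other settings, 5 of which left out arrays of replicate 2 or 3.

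**Figure D2:**
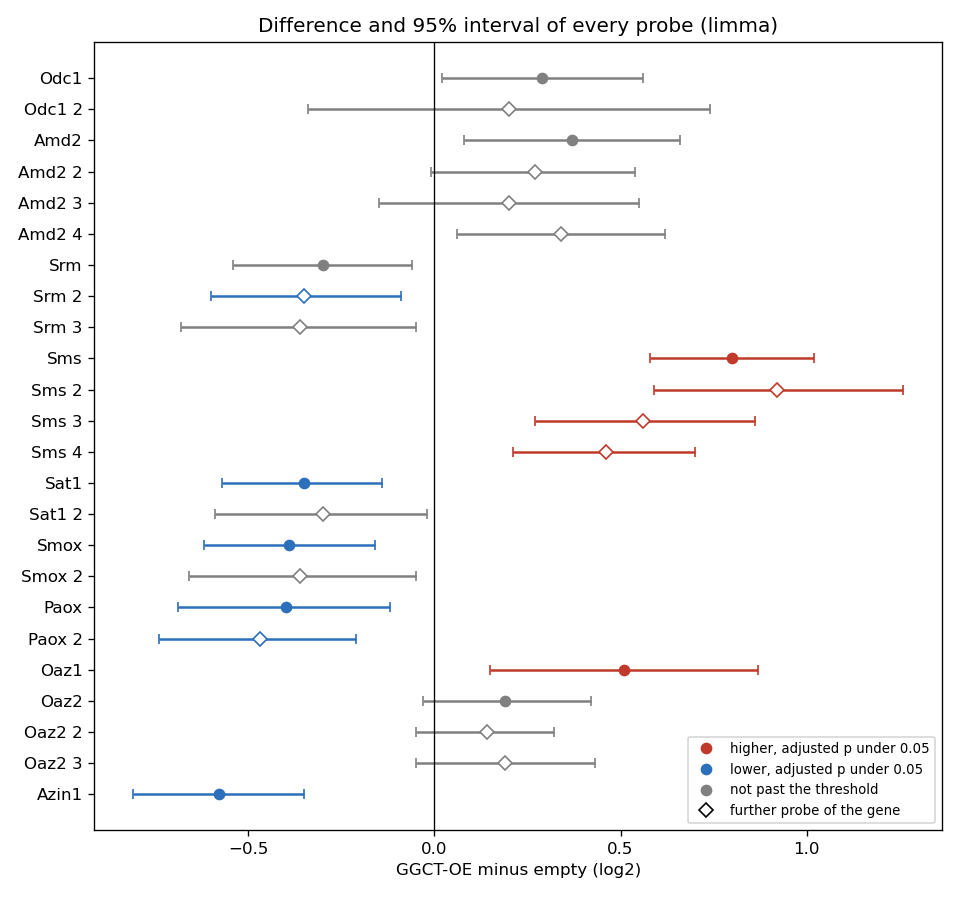
Difference of every member probe and Amd2 probe, GGCT-OE minus empty, on the log2 scale with 95% intervals from limma (3 arrays a group, not adjusted for multiple testing). All 4 Sms probes lie above 0, from 0.46 to 0.92, and the probes of Srm, Sat1, Smox, Paox and Azin1 lie below 0.

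Sat1 encodes spermidine/spermine N1-acetyltransferase, the inducible first step of breakdown and export. The brightest Sat1 probe read 2.98, 3.09 and 2.92 on GGCT-OE arrays, against 3.40, 3.26 and 3.38 on empty arrays. The groups did not overlap. The means were 2.99 ± 0.09 on GGCT-OE arrays and 3.34 ± 0.07 on empty arrays (SD, n = 3 each), a difference of -0.35 ± 0.09 or 0.784-fold, which was called (limma, adjusted p = 0.0251). Slide 1 gave -0.42 and slide 2 gave -0.32. The other Sat1 probe differed by -0.30 ± 0.12 and was not called (adjusted p = 0.0925), but was called with the replicate block (adjusted p = 0.0396). The call on the brightest probe was lost in 5 of the 6 runs without 1 array, with adjusted p-values of 0.0360 to 0.100 over the 6, and was kept without GGCT-OE replicate 2. It was also lost in all 3 runs without both arrays of a replicate number (adjusted p 0.0710 to 0.279).

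Paox encodes the peroxisomal oxidase that cleaves the acetylated products of Sat1. Its brightest probe read 3.19, 2.90 and 2.87 on GGCT-OE arrays, against 3.50, 3.33 and 3.35 on empty arrays. The highest GGCT-OE array was below the lowest empty array. The means were 2.99 ± 0.18 on GGCT-OE arrays and 3.39 ± 0.09 on empty arrays (SD, n = 3 each), a difference of -0.40 ± 0.12 or 0.755-fold (limma, adjusted p = 0.0396). It was -0.31 on slide 1 and -0.45 on slide 2. The other probe was also called, at -0.47 ± 0.11 (adjusted p = 0.0183). That call was lost in 7 of 20 other settings, among them 4 of the 6 runs without 1 array. The call on the brightest probe was lost in 5 of the 6 runs without 1 array (adjusted p 0.0165 to 0.130) and kept without GGCT-OE replicate 1. It was also lost without both arrays of replicate 2 and of replicate 3.

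Smox encodes spermine oxidase, which returns spermine to spermidine directly and releases hydrogen peroxide. Its brightest probe read 2.14, 2.26 and 2.35 on GGCT-OE arrays, against 2.55, 2.64 and 2.72 on empty arrays. The groups did not overlap. The means were 2.25 ± 0.10 on GGCT-OE arrays and 2.64 ± 0.08 on empty arrays (SD, n = 3 each), a difference of -0.39 ± 0.10 or 0.764-fold (limma, adjusted p = 0.0224). It was -0.41 on slide 1 and -0.38 on slide 2. The other probe differed by -0.36 ± 0.13 (adjusted p = 0.0737, with the block 0.0107). The call on the brightest probe was lost in 4 of the 6 runs without 1 array (adjusted p 0.0344 to 0.0946) and kept without empty replicate 1 and without GGCT-OE replicate 3. It was also lost without both arrays of replicate 2 and of replicate 3.

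Azin1 encodes antizyme inhibitor 1, a catalytically inactive relative of ornithine decarboxylase that binds antizymes. Its single probe read 2.60, 2.80 and 2.58 on GGCT-OE arrays, against 3.30, 3.19 and 3.23 on empty arrays. All GGCT-OE arrays were below all empty arrays. The means were 2.66 ± 0.12 on GGCT-OE arrays and 3.24 ± 0.06 on empty arrays (SD, n = 3 each), a difference of -0.58 ± 0.09 (95% interval -0.81 to -0.35) or 0.669-fold. This was the largest decrease among the members (limma, adjusted p = 0.00537). It was -0.70 on slide 1 and -0.52 on slide 2. Without both arrays of replicate 3 it was -0.55 with an adjusted p of 0.112.

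Oaz1 encodes antizyme 1, whose full-length protein needs a polyamine-stimulated frameshift during translation. Its single probe read 5.54, 5.32 and 5.19 on GGCT-OE arrays, against 5.09, 4.73 and 4.69 on empty arrays. The groups did not overlap, and replicate 1 was the highest array of each group. The means were 5.35 ± 0.18 on GGCT-OE arrays and 4.84 ± 0.22 on empty arrays (SD, n = 3 each), a difference of 0.51 ± 0.15 or 1.43-fold (limma, adjusted p = 0.0400). It was 0.45 on slide 1 and 0.54 on slide 2. The call was lost in 5 of the 6 runs without 1 array (adjusted p 0.0202 to 0.132) and kept without empty replicate 1. It was also lost without both arrays of replicate 2 and of replicate 3.

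Oaz2 encodes a second broadly expressed antizyme. The brightest Oaz2 probe read 5.62, 5.41 and 5.47 on GGCT-OE arrays, against 5.38, 5.24 and 5.30 on empty arrays. The lowest GGCT-OE array was only just above the highest empty array. The difference of 0.19 ± 0.09 (95% interval -0.03 to 0.42) did not pass limma's test (adjusted p = 0.164, with the replicate block 0.0404). The other 2 probes differed by 0.14 (adjusted p = 0.217) and 0.19 (adjusted p = 0.187), and the groups of the last one overlapped. Only the brightest probe was called with the block.

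The median difference over a chromosome's genes ran from -0.28 on chromosome 13 to 0.21 on chromosome 10 among the autosomes. Gene order comes from the RefSeq gene table (GRCm38.p6), and the neighbours of a member are the 10 tested named genes on either side of it. Of the 20 neighbours of Odc1 on chromosome 12, 9 were called higher and 1 lower, with a median of 0.31. The neighbours of Oaz1 on chromosome 10 had a median of 0.30, with 7 higher and none lower. The neighbours of Azin1 on chromosome 15 had a median of -0.27, with 1 higher and 8 lower, and the whole chromosome also had a median of -0.27. Those of Paox on chromosome 7 had a median of -0.33, with none higher and 7 lower. Those of Smox on chromosome 2 had a median of -0.25, with 2 higher and 7 lower. Each of these members lay on the same side of 0 as its neighbours.

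Sat1 and Sms lie close together on the X chromosome, with 4 tested named genes between them, and differed in opposite directions. Of the neighbours of Sat1, 12 were called higher and none lower, with a median of 0.62. The neighbours of Sms had a median of 0.21, with 8 higher and 2 lower, and 14 genes are neighbours of both. The lower level of Sat1 thus stood against its surroundings, and the higher level of Sms did not. The neighbours of Srm on chromosome 4 had a median of -0.17 and those of Oaz2 on chromosome 9 a median of -0.14. The difference of Oaz2 thus had the opposite sign to its neighbours.

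**Figure D3:**
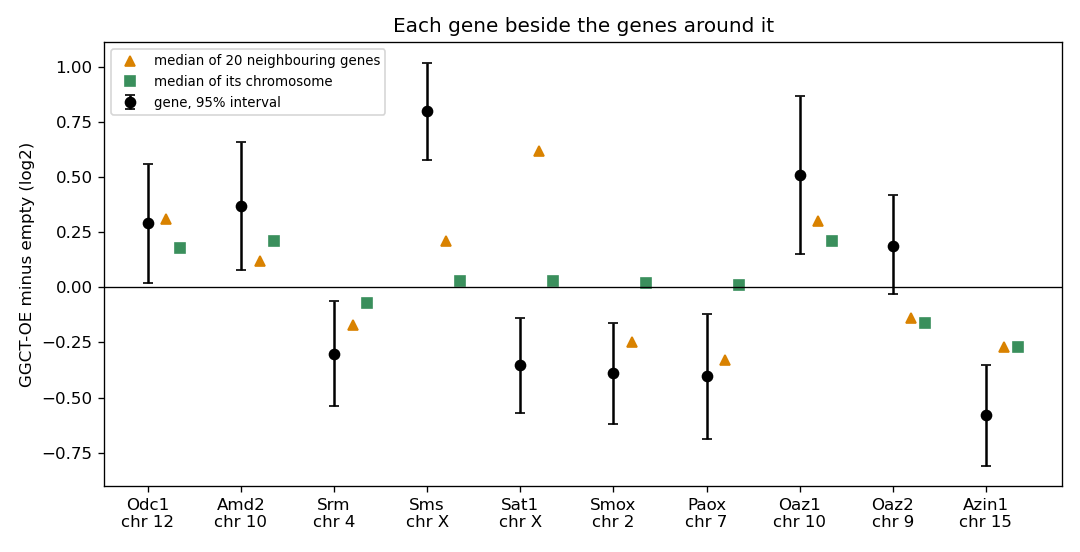
Difference of the brightest probe of each measured member and of Amd2 (GGCT-OE minus empty, log2). Each is shown with the median over its 20 tested chromosome neighbours and the median of its chromosome. Sat1 at -0.35 lies below a neighbour median of 0.62, and Azin1 at -0.58 lies below a neighbour median of -0.27.

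Subtracting the median of the neighbours on each array, a setting chosen after the values were seen, left 1 of 9 genes called higher and 1 lower. Over all 14051 genes with neighbours, 18.5% were called higher and 19.4% lower (37.9% in either direction). By probe, 3 members were higher and 2 lower, against 18.3% in each direction (36.6% in either). The brightest Sms probe stayed higher, by 0.50 (limma, adjusted p = 0.00876), as did the probe at 0.62 (adjusted p = 0.0181). The other 2 Sms probes lost their calls, at 0.27 (adjusted p = 0.141) and 0.16 (adjusted p = 0.241). Sat1 was lower by a larger amount, at -0.92 on its brightest probe (adjusted p = 0.00101) and -0.87 on the other (adjusted p = 0.00104). Azin1 differed by -0.26 (adjusted p = 0.0521), Smox by -0.20 (adjusted p = 0.159) and Paox by -0.11 (adjusted p = 0.469). Oaz1 differed by 0.20 (adjusted p = 0.281), Oaz2 by 0.28 (adjusted p = 0.0777), Srm by -0.19 (adjusted p = 0.177) and Odc1 by -0.01 (adjusted p = 0.942). Subtracting the chromosome's median in place of the neighbours' called 2 of 9 genes higher and 4 lower, against 19.6% and 20.6% of all genes (40.2% in either direction). By probe, 7 were higher and 5 lower, against 19.4% and 19.3% (38.6% in either direction). This setting left Azin1 called at -0.28 (adjusted p = 0.0359), left Oaz1 uncalled at 0.31 (adjusted p = 0.101) and called Oaz2 higher at 0.38 (adjusted p = 0.0104). The part of such regional shifts in the differences of the members was not tested further.

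The lists of genes around the members, 6 in all, hold 55 genes, of which 42 were tested by their brightest probe, 4 called higher and 11 lower, against 17.7% higher and 17.4% lower of all genes. Their median difference was -0.01, beside 0.02 over all genes and -0.02 over named genes. The shares given for all genes include unnamed transcripts. Of the 14057 named genes tested, 2505 were called higher and 3117 lower, a larger share lower than over all. Among 7 further polyamine enzymes and antizyme genes, 4 were tested, among them Amd2, and none was called. Sat2, Azin2 and Agmat differed by 0.26, -0.13 and 0.09, and Sat2 alone of these was called with the replicate block (adjusted p = 0.0244). Oaz3, Satl1 and Aoc1 were not tested, since none of the 6 arrays had their brightest probes well above background.

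In the list of arginine and ornithine supply, Slc7a2 had the largest decrease of the genes tested in the 6 lists. Of 10 listed genes 7 were tested, none was called higher and 4 were called lower, against 17.7% higher and 17.4% lower of all genes. The list's median was -0.62. The cationic amino acid transporters Slc7a2 and Slc7a1, which import arginine and ornithine, were lower by -1.71 ± 0.15 (limma, adjusted p = 0.000579) and -0.93 ± 0.11 (adjusted p = 0.00146). With normexp background correction, which adds an offset of 50, Slc7a2 differed by -0.79 (adjusted p = 0.00123). Ass1, which joins citrulline and aspartate on the way to arginine, was lower by -0.98 ± 0.10 (adjusted p = 0.00117). Oat, the mitochondrial ornithine aminotransferase, was lower by -0.62 ± 0.09 (adjusted p = 0.00409). Without both arrays of replicate 3 the calls on Oat (adjusted p = 0.0995) and Slc7a1 (adjusted p = 0.0509) were lost. The arginases Arg1 and Arg2, which make ornithine, and Otc, which consumes it, stayed too near background on all 6 arrays to be tested.

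Methyl donor supply and methionine salvage, which recycles the methylthioadenosine that Srm and Sms release, had 10 of 11 genes tested. None was called higher and 4 were called lower, against 17.7% and 17.4% of all genes, and the list's median was -0.22. Mtap, the first salvage enzyme, was lower by -0.54 ± 0.08 (limma, adjusted p = 0.00377), and its adjusted p was 0.109 without both arrays of replicate 3. Mri1 and Adi1, later salvage enzymes, were lower by -0.52 ± 0.10 (adjusted p = 0.00913) and -0.42 ± 0.11 (adjusted p = 0.0234). Mtrr, which keeps methionine synthase active, was lower by -0.59 ± 0.13 (adjusted p = 0.0135). After subtraction of the chromosome median Mtrr differed by -0.26 (adjusted p = 0.146) and after that of the neighbours' median by -0.16 (adjusted p = 0.198), and Mri1 by -0.33 (adjusted p = 0.0371) with the chromosome median. The Adi1 call was lost in 4 of the 6 runs without 1 array, all but those without GGCT-OE replicate 2 and without empty replicate 1. The Mtrr call was lost without empty replicate 3, and the calls on Mtrr, Mri1 and Adi1 were lost without both arrays of replicate 2 and of replicate 3. Mat2a, which makes S-adenosylmethionine, differed by -0.23 ± 0.07 (adjusted p = 0.0527, with the replicate block 0.0241). Other genes of the list went up or stayed level. Enoph1 differed by 0.35 (adjusted p = 0.0527, with the block 0.0425) and Ahcy by 0.26 (adjusted p = 0.0599, with the block 0.0321). A dimmer Enoph1 probe differed by 0.13 (adjusted p = 0.361), and Apip by 0.06 (adjusted p = 0.745). With the block 2 genes of the list were called higher and 6 lower, against 27.3% and 26.1% of all genes.

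Spermidine is the substrate for hypusine, a modified residue of the translation factor eIF5A. All 4 genes of this list were tested, and only Dhps, deoxyhypusine synthase, was called, lower by -0.47 ± 0.09 (limma, adjusted p = 0.0103), against 35.1% of all genes called in either direction. With the chromosome median subtracted it was -0.28 (adjusted p = 0.0373), and its call was lost without both arrays of replicate 2 and of replicate 3. A second Dhps probe was also called, at -0.48 (adjusted p = 0.00773), and lost its call in the same runs. Eif5a differed by 0.04 ± 0.08 (95% interval -0.17 to 0.24, adjusted p = 0.776), Eif5a2 by 0.23 (adjusted p = 0.102) and Dohh, the hydroxylase, by 0.28 (adjusted p = 0.253).

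Polyamine transport had 7 of 12 genes tested, 2 called higher and 2 lower, against 17.7% and 17.4% of all genes. Slc3a2, a heavy chain of amino acid transporters linked to polyamine export, was lower by -1.02 ± 0.09 (limma, adjusted p = 0.000511). Its other probe differed by -0.27 (adjusted p = 0.372, with the replicate block 0.0166). Cav1, a caveolar protein, was lower by -0.46 ± 0.10 (adjusted p = 0.0132). It was -0.24 (adjusted p = 0.136) with the neighbours' median subtracted, and its call was lost without GGCT-OE replicate 3, empty replicate 2 or empty replicate 3. The other Cav1 probe was also called, at -0.51 (adjusted p = 0.00931), and kept its call in all 6 runs without 1 array. With the neighbours' median subtracted that probe was -0.29 (adjusted p = 0.0818). Slc18b1, a vesicular polyamine transporter, was higher by 0.41 ± 0.08 (adjusted p = 0.00945), and by 0.21 (adjusted p = 0.0509) with the chromosome median subtracted. Gpc1, a glypican whose heparan sulfate binds polyamines, was higher by 0.55 ± 0.16 (adjusted p = 0.0388), a call lost in 5 of the 6 runs without 1 array and kept without GGCT-OE replicate 1. With the neighbours' median subtracted it was 0.86 (adjusted p = 0.00793). The calls on Cav1, Slc18b1 and Gpc1 were lost without both arrays of replicate 2 and of replicate 3. Atp13a3, a polyamine importer, differed by -0.01 ± 0.14 (adjusted p = 0.971). With the neighbours' median subtracted Atp13a3 was called higher, at 0.48 (adjusted p = 0.0303). In that setting 4 genes of the list were called higher and 1 lower, against 18.5% and 19.4% of all genes.

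The MYC network, whose members bind the E-box, had 10 of 11 genes tested, 2 called higher and none lower, against 17.7% and 17.4% of all genes. Mycn read -0.84, -0.62 and -0.76 on GGCT-OE arrays, against -2.39, -2.24 and -2.51 on empty arrays. The groups were far apart, with a difference of 1.64 ± 0.11 or 3.11-fold (limma, adjusted p = 0.000218). With normexp background correction it was 1.05 (adjusted p = 8.75e-05). Mxi1, a MAX partner that opposes MYC, was higher by 0.52 ± 0.10 (adjusted p = 0.00872). It was 0.30 (adjusted p = 0.0272) with the neighbours' median subtracted, and its call was lost without both arrays of replicate 2 and of replicate 3. The brightest Myc probe differed by -0.39 ± 0.14 and was not called (adjusted p = 0.0753, with the replicate block 0.0272). Its other probe was called at -0.50 (adjusted p = 0.0255), a call lost without GGCT-OE replicate 3, without each empty array in turn and without both arrays of each replicate number. After subtraction of the chromosome median that probe differed by -0.20 (adjusted p = 0.227), and after that of the neighbours' median by -0.06 (adjusted p = 0.700), with 0.05 (adjusted p = 0.797) for the brightest probe. Max differed by -0.33 (adjusted p = 0.0589, with the block 0.0196), and Mnt, a repressor that pairs with MAX, by -0.33 (adjusted p = 0.0604, with the block 0.00894). Max was called lower with the chromosome median subtracted, at -0.51 (adjusted p = 0.00559), and with the neighbours' median, at -0.40 (adjusted p = 0.0192). The chromosome setting called 3 network genes higher and 1 lower, against 19.6% and 20.6% of all genes. The neighbour setting called 3 higher and 2 lower, against 18.5% and 19.4%.

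**Figure D4:**
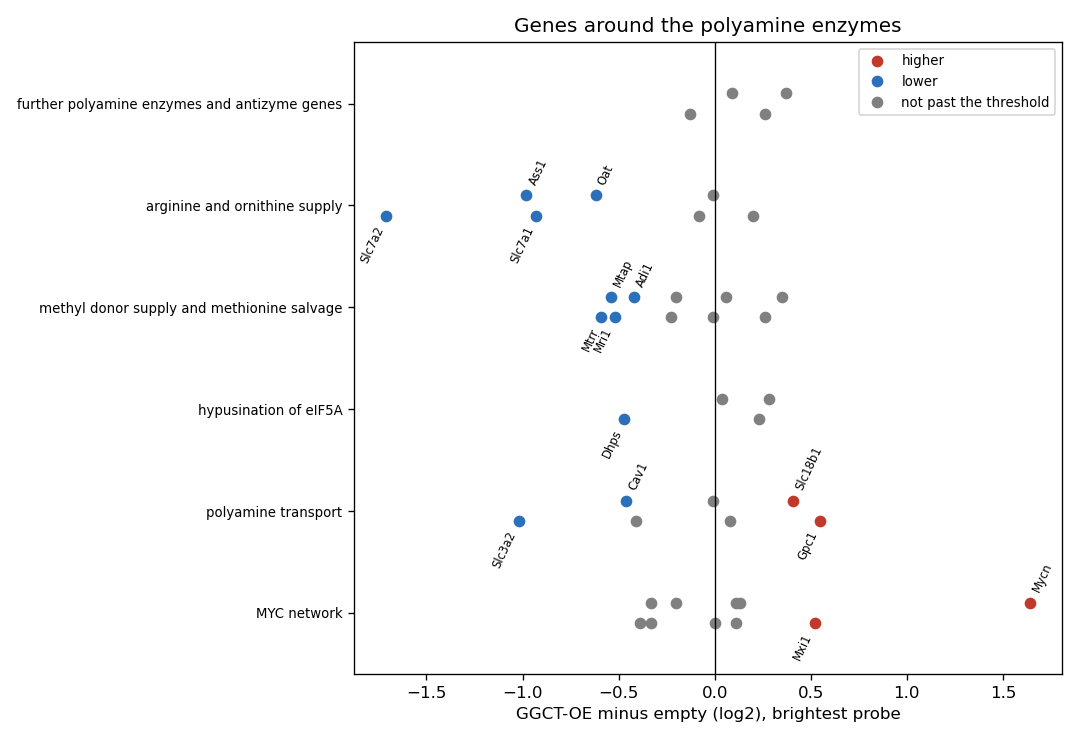
Difference of the brightest probe of each tested gene in 6 lists around the route (GGCT-OE minus empty, log2), coloured by limma's call at an adjusted p under 0.05, with called genes named. The arginine and ornithine supply genes Slc7a2, Ass1, Slc7a1 and Oat lie between -1.71 and -0.62, and Mycn lies at 1.64.

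The Ggct probe read -0.14, 0.20 and -0.16 on GGCT-OE arrays, against -0.57, -0.72 and -0.66 on empty arrays, a difference of 0.62 ± 0.12 or 1.53-fold (limma, adjusted p = 0.0107). The labels do not give the species of the expressed sequence, so this probe need not measure it. The array-wide 75th percentile intensity was 380.0 to 470.5, and 54.57% to 61.65% of probes were well above background. For each replicate number the 75th percentile, which the scaling removes, was higher on the GGCT-OE array. It was 407.6 against 380.0 for replicate 1, 461.1 against 424.4 for replicate 2 and 470.5 against 428.8 for replicate 3. All 9 fibroblast markers were well above background on all 6 arrays, of which Col1a1, Col1a2, Col3a1 and Pdgfrb were lower and Pdgfra was higher on GGCT-OE arrays. Among markers of other cell types, Epcam and Cdh1 (epithelial), Ptprc (haematopoietic) and Kdr and Tek (endothelial) did not rise well above background on any of the 6 arrays. The other markers of these types were well above background on some or all arrays. The epithelial Krt8 and Cldn4 were above background on all 6 arrays and higher on GGCT-OE arrays, by 1.18 and 0.49 (limma, adjusted p = 0.0118 and 0.0156). Over the other settings and left-out arrays Krt8 differed by 0.57 to 1.34. The endothelial Cdh5 was above background on all 3 GGCT-OE arrays and on no empty array, so it entered the test through the GGCT-OE group alone. With the empty arrays set to the lowest signal well above background on each, it was 2.18-fold higher on GGCT-OE arrays. Its size depends on the processing, with log2 differences of 0.41 to 3.64 over the other settings and left-out arrays. The endothelial Pecam1 was higher by 0.43 (adjusted p = 0.0466). The haematopoietic Cd68, Csf1r and Cd3e were above background on all 6 arrays, with Cd68 lower by -0.27 (adjusted p = 0.0458) and the others not called. The part of these markers in the differences of the polyamine genes was not tested.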

How the data were processed

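The authors' scanner files hold Cy3 spot intensity with background subtraction and detrending within each array, done in Feature Extraction 12.1.0.3 according to the headers. The deposited series table holds log2 values that equal the log2 processed intensity minus a constant per array, with column medians of -3.88 to -3.70 and no centring over arrays seen. Each file holds 62976 spots. Control spots (3671) and outlier spots (578 over the arrays) were dropped, no spot was saturated, and spots of a probe were averaged. Accessions matched to the RefSeq gene table (GRCm38.p6) named 34504 of 56570 probes (60.99%). The array's own grid uses another build, so no probe position is given.

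The 75th percentile of log2 intensity was subtracted per array. A probe was tested where all 3 arrays of either group had it well above background. The 2-sided test was limma's moderated one (version 3.58.1, R 4.3.3) with no block. It was tried on simulated data with independent arrays, which does not show how it behaves when arrays share a slide or replicate number. P-values were adjusted over all 31110 probes. A gene is counted by its brightest probe. Array numbers limit the precision. No per-sample column was left unmapped.

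Members and lists were chosen with earlier results of these data known. All members with every probe, Ggct, up to 4 genes per list with the smallest adjusted p, and Myc, Eif5a, Dhps, Mat2a, Mtap, Arg1, Arg2, Oat and Atp13a3 were to be named. Other named genes were added after their values were seen. Replicate numbers come from the titles. Deviations of same-numbered arrays from their group means correlated at 0.715, 0.436 and 0.34, each over 0.1, so the numbers were read as a possible pairing. This pairing was left out of the main test and fitted in a separate one. Only replicate 1 lies on slide 1, so its 0.715 cannot be divided between number and slide. Arrays of slide 2 with different numbers correlated at 0.32 and 0.282, nearly as high as 0.34, so number and slide are not separated for these either.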

Additional observations from a re-analysis of the deposited data

How the results depend on the processing

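Over 24 probes (members and Amd2) and the other settings and left-out arrays, 500 values were computed. Of these, 385 kept direction and side of the threshold, 68 lost a call, 46 gained one and 1 reversed. The reversed one was the dimmer Odc1 probe, which ran from -0.01 (without GGCT-OE replicate 2) to 0.38 (without GGCT-OE replicate 1). After subtraction of the neighbours' median it was -0.10, the brighter Odc1 probe -0.01 and the brightest Myc probe 0.05. Without the filter on dim probes, 3052 probes were called higher and 3409 lower (5511 and 5431 with it), 2371 genes higher and 2607 lower (4201 and 4134), 2 member probes higher and 1 lower, 1 member gene in each direction and 7 list genes lower. Among the list genes that lost their call there were Mtrr, Adi1, Dhps, Slc18b1, Gpc1 and Cav1. Normexp called 10 member probes lower. Array weights called 8578 probes and 6549 genes higher, 10 member probes lower, and 9 list genes higher and 17 lower. The replicate block called 8521 probes higher and 8160 lower, 6500 genes higher and 6206 lower, 10 member probes lower, 4 member genes higher and 9 list genes higher. It changed no call on a member or Amd2 probe beyond those given above. The slide block called 8598 probes higher and 8163 lower, 6567 genes higher, 10 member probes lower and 8 list genes higher. Subtracting the chromosome median, chosen like the neighbours' median after seeing the data, called 2756 genes higher. Subtracting the neighbours' median called 2601 genes higher and 2722 lower, over fewer genes, with 3 member probes higher and 2 lower, 1 member gene in each direction and 9 list genes higher. Leaving out 1 array or both arrays of a replicate number gave 1003 to 6089 probes higher and 1518 to 6043 lower, 793 to 4634 genes higher and 1169 to 4575 lower. It gave 0 to 5 member probes higher and 0 to 4 lower, 0 to 2 member genes higher and 0 to 3 lower, and 1 to 5 list genes higher and 3 to 11 lower. These runs have fewer arrays, yet the run without both arrays of replicate 1 gave the highest probe counts, 6089 and 6043, against 5511 and 5431 with all arrays. The cause of the changes was not tested for these runs or for the other settings. All member probes were well above background, and 3 arrays a group limit what can be called.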
